A study of Mus musculus with 28 samples.

Results

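The collagen alpha chains were examined in RNA-seq libraries of the mouse lung cancer line 3LL (Lewis lung carcinoma) and of the tumors it forms. Every row of the deposited table whose symbol has the form of a collagen alpha chain name (Col, a type number, a and a chain number) was taken, which gave 30 genes of 44 such genes in the GENCODE vM21 annotation, and 30 of 43143 rows in all. The 14 collagen genes without a row under their symbol were not analysed here. The 28 libraries form 7 groups of 4. Experiment A holds WT tumors from the left flank and KEAP1-KO tumors from the right flank. Experiment B holds KEAP1-KO tumors from the left flank and DKO tumors from the right flank. The other 3 groups are cultured WT, KEAP1-KO and DKO cells. All tumors grew for 10 days under the skin of 6-week-old male albino C57BL/6 mice, so host stroma is part of each tumor sample. The study placed both lines of an experiment in the same mice, but the labels do not say which tumors share a mouse, and the tumors were compared as unpaired. The KEAP1-KO line lacks KEAP1, the protein that keeps the transcription factor NRF2 low, and carries a frameshifting insertion in Keap1. The DKO line was made from the KEAP1-KO line by also editing Nrf2 (symbol Nfe2l2). Each edited line grew from a single colony, so a genotype and a clone cannot be told apart, and within each experiment the genotype and the flank cannot be told apart either. Nothing in the labels says that the 4 samples of a group come from separate cultures, and the p-values measure the spread between these samples.

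Collagens are secreted or membrane-bound proteins of the extracellular matrix whose chains wind into a triple helix, which needs the small residue glycine at regular steps along the chain. Fibril-forming chains (types I, II, III, V, XI, XXIV and XXVII) build the banded fibrils of connective tissue. Fibril-associated chains (such as types IX, XII, XIV, XVI, XX and XXII) decorate those fibrils, type VI forms beaded filaments, type IV forms the net of basement membranes, and types XIII, XVII and XXIII span the cell membrane. In solid tumors fibroblasts are the best known source of fibrillar collagen, while cancer cells can make collagen chains of their own, which is the reason for setting the tumors beside the cultured cells.

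Most chains are represented by a partial transcript, and each value belongs to that row only. A gene row holds 11 of the 30 chains, a retained-intron transcript 10, a protein-coding transcript 4, a processed transcript 3, a transcript subject to nonsense-mediated decay 1, and 1 transcript (of Col5a1) was not found in the annotation used here. The stretches below show which rows carry the sequence of the helix. They were read from the GENCODE transcripts, and the capitals mark the first 2 bases of each glycine codon (GG), which recur every 9 bases through the helix.
Col6a2: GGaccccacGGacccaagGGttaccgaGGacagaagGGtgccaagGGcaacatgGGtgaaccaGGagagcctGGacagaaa
Col13a1: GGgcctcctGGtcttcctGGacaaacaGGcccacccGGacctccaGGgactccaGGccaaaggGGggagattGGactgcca
Col18a1: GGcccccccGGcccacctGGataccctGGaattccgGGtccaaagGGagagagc
Col3a1: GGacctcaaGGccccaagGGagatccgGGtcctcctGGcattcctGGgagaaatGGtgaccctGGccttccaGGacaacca
The longest unbroken run of such triplet repeats was 87 in the Col6a2 row, 44 in the Col13a1 row, 6 in the Col18a1 row and 13 in the Col3a1 row, whose retained introns interrupt the helix. The Col8a1 row had a run of 3 and the Col6a3 row a run of 2, so little of the helix is measured there. On build GRCm38 the Col6a2 row (ENSMUST00000137365) spans chr10:76601011-76623325, the Col6a3 row (ENSMUST00000150769) chr1:90767389-90773215, the Col8a1 row (ENSMUST00000232382) chr16:57751915-57754715, the Col13a1 row (ENSMUST00000105451) chr10:61838236-61878392, the Col18a1 row (ENSMUST00000218407) chr10:77055607-77059997 and the Col3a1 row (ENSMUST00000129611) chr1:45311538-45325018. The values below are normalized read counts, obtained by undoing the deposited log2(normalized count + 4). Differences are on that log2 scale and were tested with limma, with Benjamini-Hochberg adjustment over all rows tested and a threshold of 0.05. A row was tested where at least 4 libraries of the fit reached a normalized count of 5.

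The libraries held between 4222380 and 7524284 recovered reads. Keap1 followed the labels: its mean level was 469 in WT tumors and between 162 and 175 in the other tumor groups, and 696 in WT cells against 189 in KEAP1-KO and 159 in DKO cells. Nqo1, a target of NRF2, was 112 in WT tumors, 5433 and 4850 in the KEAP1-KO tumors of Experiments A and B, and 59.2 in DKO tumors. The Nfe2l2 row is a processed transcript and checks nothing, so the second edited gene was not checked directly. Leukocyte markers were low in the cultures: the summed list was between 8.0 and 119.8 in cells and between 1067 and 4346 in tumors.

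The first question was which chains cultured cancer cells make. With a normalized count of at least 5 in at least 4 of the 12 cultures, 17 chains were made in culture. Another 7 reached that level in at least 4 of the 16 tumors and not in the cultures (Col15a1, Col13a1, Col23a1, Col27a1, Col6a1, Col2a1 and Col22a1), and 6 reached it in neither (Col4a1, Col4a2, Col4a5, Col4a6, Col14a1 and Col24a1). By these rows the cultured cells carried RNA of chains from the fibril-forming, fibril-associated, beaded-filament, network, multiplexin, transmembrane and anchoring-fibril classes, including both chains of type I. A row of Col4a1 without a symbol was also well above the limit in culture (described with the basement membrane chains), so the sorting holds for the symbol rows only. Of the 7, Col15a1, Col13a1, Col23a1 and Col27a1 stayed below a count of 5 in each of the 12 cultures, whereas Col6a1, Col2a1 and Col22a1 exceeded it in 2, 3 and 2 cultures. With a count of 10 in place of 5, 15 chains were made in culture and 6 were tumor-only: Col2a1 and Col22a1 fell below the filter and Col17a1 moved to the tumor-only chains. The name tumor-only stands for this limit and does not give the cell of origin. It does not hold for the levels of Col2a1 (mean 4.55 in tumors and 3.80 in culture) and Col22a1 (3.92 and 3.63). Col6a1 was also present in culture (14.48 in tumors and 3.02 in culture).

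**Figure D1:**
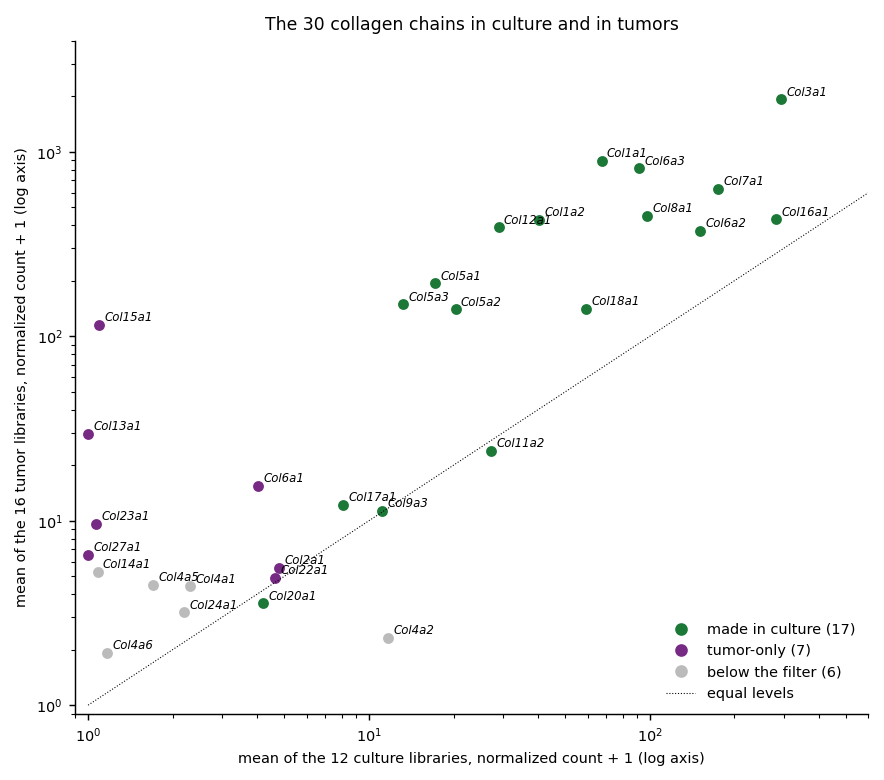
Each point is 1 of the 30 chains, with the mean normalized count + 1 of the 12 cultures on the horizontal log axis and of the 16 tumors on the vertical log axis; the dotted line marks equal levels. Col15a1 (114 in tumors and 0.09 in culture) and Col13a1 (28.6 and 0.00) lie farthest from the line at the left edge, and Col3a1 is highest on both axes.

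The tumor-only chains were low except for Col15a1. Col15a1, a multiplexin found beside basement membranes, had normalized counts of 190.4, 133.4, 108.8 and 93.4 in the WT tumors, 47.8, 54.3, 113.0 and 70.1 in Experiment A KEAP1-KO tumors, 97.8, 122.9, 128.8 and 139.0 in those of Experiment B, and 104.1, 133.9, 166.7 and 124.5 in the DKO tumors. Only 1 of the 12 cultures held any Col15a1, at 1.1. Col13a1, a membrane-spanning chain known from the neuromuscular junction, was at 0 in all 12 cultures, where 0 allows up to 3 reads a library or a normalized count of 2.56 to 3.42, for counting error only. The summed count of the 7 tumor-only chains was 185 ± 60.7 (SD, n = 4) in WT tumors and 197 ± 48.8 (SD, n = 4) in DKO tumors, against 8426 ± 5280 (SD, n = 4) and 10242 ± 3456 (SD, n = 4) for the 17 chains made in culture. In KEAP1-KO tumors of Experiments A and B it was 139.5 ± 41.3 (SD, n = 4) and 199.4 ± 25.6 (SD, n = 4). The 17 chains summed there to 4249 ± 2447 (SD, n = 4) and 5068 ± 933 (SD, n = 4).

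Per kilobase of the row, the highest chains in tumors were Col6a3 (1258 normalized counts per kb), Col3a1 (610), Col1a2 (501), Col7a1 (228) and Col12a1 (218). In culture they were Col6a3 (140), Col3a1 (92.8), Col18a1 (86.1), Col7a1 (62.6) and Col16a1 (61.4). The order changed between groups: in DKO tumors Col3a1 was first (1414) before Col6a3 (781), in DKO cells Col3a1 was first (135) and Col6a3 sixth (34.1), and in the other 5 groups Col6a3 was first. These levels use the length of the listed row, and no length was at hand for the Col5a1 row.

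Most chains stood higher in tumors than in cells of the same genotype. Of 25 chains tested, 17 were higher in WT tumors than in WT cells and 0 lower (24.7% of all rows were higher, 38.8% were called in either direction). In KEAP1-KO tumors 15 were higher and 1 lower in Experiment A (23.9% of all rows higher, 39.6% called) and 17 higher and 1 lower in Experiment B (23.9% higher, 38.8% called), and in DKO tumors 19 were higher and 1 lower (27.6% higher, 43.5% called). Among the 17 chains made in culture, 14 were higher in WT tumors, 12 and 13 in KEAP1-KO tumors of Experiments A and B, and 14 in DKO tumors. The other 3, 3, 4 and 5 higher calls were tumor-only chains. These passed the filter only or mainly through the tumors, so their calls are no support for a difference. The median over all rows moved by 0.16 to 0.23 in the same fits, and the median over the chains by 0.98 to 1.75. The lower chains were Col20a1 in both KEAP1-KO comparisons and Col11a2 in the DKO comparison. Col20a1 reached a count of 5 in 3 KEAP1-KO cultures, 1 DKO culture and 1 DKO tumor, so it passed the filter mainly through the group in which it was then called higher, and its calls are no support for a difference. Each Col20a1 call was lost in 5 alternatives, among them the omission of KEAP1-KO cells 2 or 3, of tumors 2 or 3 in Experiment A, or of tumor 3 in Experiment B (adjusted p = 0.0516 to 0.0910), and its call as higher in WT tumors than in WT cells was lost in 8. The excess was uneven between chains: Col1a1 was 18.4 times as high in WT tumors as in WT cells (7.75 times without WT tumor 1) and 9.05 times as high in Experiment A KEAP1-KO tumors as in their cells (3.26 times without KEAP1-KO tumor 3), whereas Col18a1 was 2.02 and 1.95 times and Col16a1 1.68 and 1.31 times as high. Since the sorting of chains above used these levels, these counts describe it. In a bulk tumor, fewer cells of a type and less RNA per cell cannot be told apart.

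The next question was whether KEAP1-KO tumors differ from WT tumors. Of 23 chains tested in Experiment A, 3 were higher and 4 lower in KEAP1-KO tumors, where 5.61% of all 34215 rows were higher and 7.49% lower (13.1% called). The lower chains were Col6a3, Col6a2, Col8a1 and Col15a1, and the higher ones Col13a1, Col11a2 and Col18a1. Among the 23 chains 17 had a negative difference, with a median of -0.44 against -0.03 over all rows. KEAP1-KO tumors of Experiment B against those of Experiment A, the same line, gave 17 of 23 positive differences. Their median was 0.33, against 0.01 over all rows, so the signs alone are not read as a genotype difference.

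Col6a2, a chain of the beaded filaments of type VI, had the tightest values. It was 661.1, 635.4, 651.6 and 641.7 in the WT tumors and 201.2, 207.0, 190.3 and 235.6 in the Experiment A KEAP1-KO tumors. It was 250.4, 204.8, 226.2 and 228.3 in the Experiment B KEAP1-KO tumors and 391.2, 457.4, 446.0 and 326.6 in the DKO tumors. Every WT tumor stood above every DKO tumor, and every DKO tumor above every KEAP1-KO tumor. The difference was -1.62 (SE 0.10, adjusted p = 3.64e-08) in Experiment A and 0.81 (SE 0.10, adjusted p = 6.86e-05) for DKO against KEAP1-KO in Experiment B. In culture the row lay between 128.9 and 180.9 in all 12 libraries, and KEAP1-KO cells differed from WT cells by -0.10 (95% interval -0.32 to 0.12, adjusted p = 0.595).

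From WT to KEAP1-KO samples Col6a3, the long chain of type VI, moved in opposite directions in tumors and in culture. It was 2430, 1759, 1035 and 1101 in the WT tumors and 303.4, 364.2, 811.5 and 390.3 in the KEAP1-KO tumors, with no overlap and a difference of -1.77 (SE 0.38, adjusted p = 0.00476). In culture it was 70.7, 70.1, 71.5 and 63.3 in WT cells, 204.3, 172.1, 198.0 and 150.4 in KEAP1-KO cells and 26.4, 17.9, 25.1 and 18.8 in DKO cells. The 3 lines did not overlap. KEAP1-KO cells were higher than WT cells by 1.34 (SE 0.14, adjusted p = 2.32e-05) and DKO cells lower than KEAP1-KO cells by -2.84 (SE 0.14, adjusted p = 3.18e-08). In DKO tumors Col6a3 was 406.5, 633.6, 774.6 and 202.9, against 619.5, 811.8, 658.4 and 705.2 in Experiment B KEAP1-KO tumors. These overlap, and the difference was -0.63 (SE 0.38, adjusted p = 0.396). The remaining type VI chain with a row here, Col6a1, has a retained-intron row. That row was low in tumors (5.7 to 33.3) and differed by -0.83 in Experiment A (adjusted p = 0.102).

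Col8a1, a short chain that forms hexagonal networks around vessels and elsewhere, was lower in KEAP1-KO samples both in tumors and in culture. The WT tumors had 456.3, 665.9, 663.5 and 535.6, and the Experiment A KEAP1-KO tumors 379.1, 239.4, 344.9 and 187.9. The Experiment B KEAP1-KO tumors had 254.4, 302.6, 232.3 and 230.6, and the DKO tumors 531.4, 720.1, 816.7 and 598.6. The KEAP1-KO tumors of either experiment lay below all WT and all DKO tumors. The difference was -1.04 (SE 0.20, adjusted p = 0.0021) in Experiment A and 1.36 (SE 0.20, adjusted p = 3.33e-04) in Experiment B. WT cells had 181.3, 210.4, 186.3 and 213.5, KEAP1-KO cells 35.3, 32.3, 25.5 and 29.5, and DKO cells 53.7, 57.8, 53.4 and 80.3. The fall from WT to KEAP1-KO cells was -2.55 (SE 0.14, adjusted p = 1.01e-07) and the rise in DKO cells 0.90 (SE 0.14, adjusted p = 0.00111), so DKO cells stayed below WT cells by -1.64 (SE 0.14, adjusted p = 4.35e-06).

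Col13a1 was higher in KEAP1-KO tumors than in WT or DKO tumors. It had normalized counts of 8.1, 7.6, 6.4 and 17.8 in WT tumors, 36.7, 49.7, 41.5 and 50.6 in Experiment A KEAP1-KO tumors, 40.9, 41.0, 33.5 and 57.6 in Experiment B KEAP1-KO tumors, and 6.6, 15.5, 11.3 and 32.4 in DKO tumors. The KEAP1-KO tumors lay above all WT and all DKO tumors. The difference was 1.85 (SE 0.32, adjusted p = 8.82e-04) in Experiment A and -1.34 (SE 0.32, adjusted p = 0.0146) in Experiment B. The second call was lost without KEAP1-KO tumor 4 of Experiment B (-1.20, adjusted p = 0.0515) and in the fit of the compared groups alone (adjusted p = 0.0536). The row, at 0 in each of the 12 cultures, is a processed transcript, and each value belongs to this row and not to the RNA of the gene as a whole.

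Col18a1, the multiplexin whose end fragment is endostatin, ran in parallel in tumors and in culture. The tumors had 120.4, 137.2, 111.5 and 90.8 (WT), 161.2, 166.5, 175.8 and 161.6 (KEAP1-KO, Experiment A), 268.3, 198.3, 149.1 and 189.9 (KEAP1-KO, Experiment B) and 64.7, 92.7, 78.5 and 75.0 (DKO). The KEAP1-KO tumors lay above every WT and every DKO tumor. The cells had 47.9, 59.4, 70.4 and 50.4 (WT), 79.9, 97.9, 66.9 and 96.7 (KEAP1-KO), and 39.1, 20, 33.5 and 35 (DKO). The differences of DKO from KEAP1-KO were -1.31 (SE 0.16, adjusted p = 5.71e-05) in tumors and -1.33 (SE 0.20, adjusted p = 7.71e-04) in cells. Those of KEAP1-KO from WT were 0.53 (SE 0.16, adjusted p = 0.0375) in tumors and 0.55 (SE 0.20, adjusted p = 0.0869) in cells. The tumor call of Experiment A was lost in 9 of 17 alternatives, among them the omission of WT tumor 1, 3 or 4 or of any KEAP1-KO tumor (0.43 to 0.56, adjusted p = 0.0602 to 0.106). With the 2 rows of Col18a1 summed, KEAP1-KO against WT was not called in tumors (0.43, SE 0.16, adjusted p = 0.0586). In cells it was called (0.64, SE 0.17, adjusted p = 0.00998).

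Col11a2, a minor fibril chain best known from cartilage, was higher in KEAP1-KO tumors by 1.07 (SE 0.22, adjusted p = 0.0032). It had counts of 11.7, 14.3, 12.8 and 8.5 in WT tumors and of 31.1, 22.0, 36.7 and 27.3 in KEAP1-KO tumors. In culture it rose from 8.41 ± 4.07 (SD, n = 4) in WT cells to 31.2 ± 4.47 (SD, n = 4) in KEAP1-KO cells and was 38.9 ± 5.31 (SD, n = 4) in DKO cells. The call of KEAP1-KO against WT cells was 1.56 (SE 0.23, adjusted p = 4.48e-04). DKO and KEAP1-KO samples did not differ beyond their spread, with -0.20 (95% interval -0.66 to 0.27) in tumors and 0.28 (95% interval -0.22 to 0.78) in cells. Col15a1 was lower in Experiment A KEAP1-KO tumors by -0.87 (SE 0.25, adjusted p = 0.0273), although KEAP1-KO tumor 3 (113.0) stood above WT tumors 3 and 4. That call was lost in 7 of 17 alternatives, among them the omission of WT tumor 1 or 2 or KEAP1-KO tumor 1, 2 or 4 (-0.89 to -0.68, adjusted p = 0.0533 to 0.0936).

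**Figure D2:**
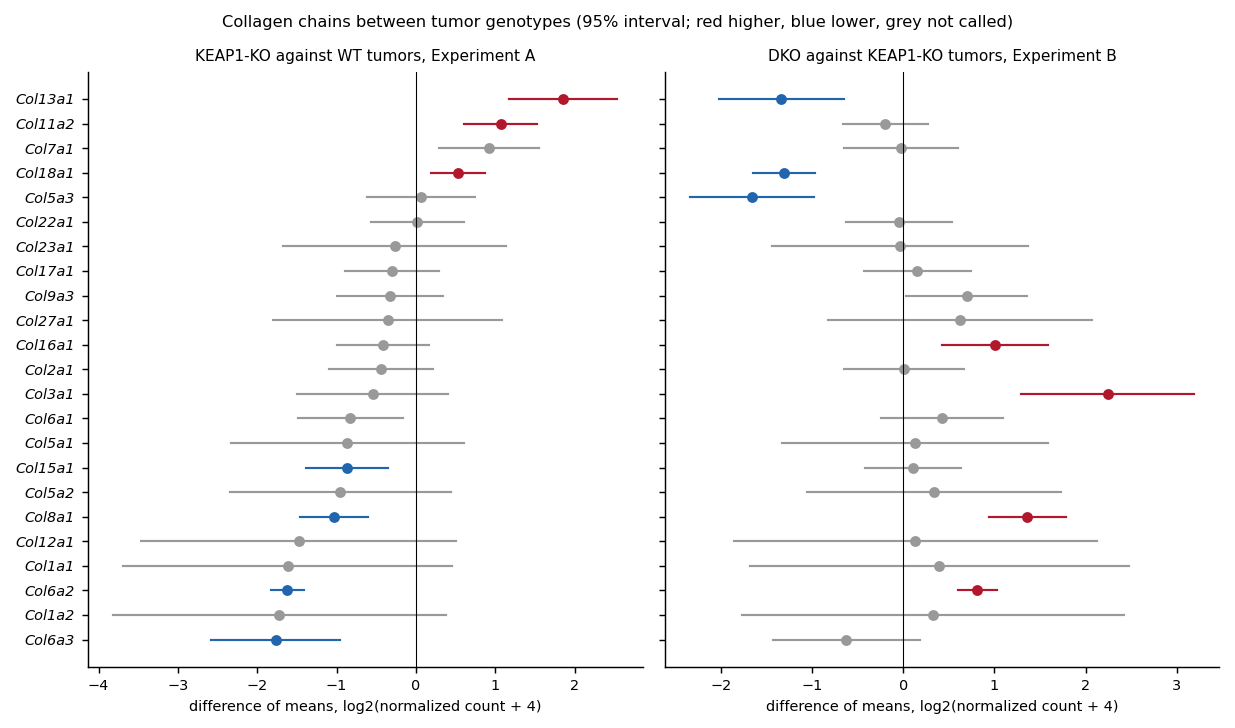
Points are differences of group means in log2(normalized count + 4) for the 23 chains tested in tumors, with 95% intervals, for KEAP1-KO against WT tumors (left) and DKO against KEAP1-KO tumors (right), in the same order of chains. Col6a2 has the shortest interval, and Col1a1, Col1a2 and Col12a1 have the widest, crossing 0 on both sides.

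The DKO tumors were then compared with the Experiment B KEAP1-KO tumors, which asks which chains follow NRF2. Of 23 chains 4 were higher and 3 lower in DKO tumors, where 4.22% of all rows were higher and 4.64% lower (8.86% called). The higher chains were Col3a1, Col8a1, Col16a1 and Col6a2, and the lower ones Col5a3, Col13a1 and Col18a1. The median difference was 0.13 over the chains and 0.00 over all rows.

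Col3a1, the fibril-forming chain of type III that accompanies type I in skin and vessels, showed the largest difference of any chain in Experiment B. It had 1008, 1180, 787.3 and 776.4 in KEAP1-KO tumors and 4545, 3483, 5954 and 3889 in DKO tumors, a difference of 2.24 (SE 0.45, adjusted p = 0.0042). In Experiment A the WT tumors had 2487, 1717, 755.8 and 537.3 and the KEAP1-KO tumors 464.6, 681.1, 1956 and 616.2, which overlap (-0.54, SE 0.45, adjusted p = 0.517). In culture Col3a1 was 132.3, 138.1, 152.8 and 110.5 in WT cells, 300, 346.0, 324.4 and 313.4 in KEAP1-KO cells and 430.9, 405.7, 418.1 and 445.7 in DKO cells. KEAP1-KO cells were higher than WT cells by 1.25 (SE 0.09, adjusted p = 9.05e-07), and DKO cells higher than KEAP1-KO cells by 0.40 (SE 0.09, adjusted p = 0.0125). The latter call was lost without a mean-variance trend (adjusted p = 0.0547). Dcn (decorin, a fibroblast marker also measured by a retained-intron row) was 8034 in the DKO tumor with the highest value and between 4712 and 4801 in the others, 570 to 1014 in Experiment B KEAP1-KO tumors, and its part in the Col3a1 result was not tested.

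Col5a3, a chain of type V collagen, which regulates fibril assembly, was lower in DKO than in KEAP1-KO samples, in tumors and in culture. The Experiment B KEAP1-KO tumors had 174.6, 148.0, 168.4 and 175.2 and the DKO tumors 27.4, 111.3, 35.6 and 54.6 (-1.66, SE 0.32, adjusted p = 0.0031). KEAP1-KO cells had 36.2, 8.7, 25.5 and 5.4, and DKO cells 5.9, 0.0, 0.0 and 0.0 (-1.95, SE 0.47, adjusted p = 0.0198). The culture call was lost without KEAP1-KO cells 1 or 3 or DKO cells 2, 3 or 4 (-1.84 to -1.60, adjusted p = 0.0548 to 0.0655) and among the compared groups alone (adjusted p = 0.0546). KEAP1-KO and WT samples did not differ beyond their spread in tumors (0.06, 95% interval -0.62 to 0.74) or in cells (-0.03, 95% interval -1.05 to 0.98).

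Col16a1, a fibril-associated chain, had 382.1, 416.1, 259.7 and 354.9 in Experiment B KEAP1-KO tumors and 570.9, 618.1, 812.7 and 854.5 in DKO tumors (1.01, SE 0.27, adjusted p = 0.0288). In culture it was 259.1, 186.1, 183.9 and 217.6 in KEAP1-KO cells and 361.5, 311.1, 484.1 and 487.6 in DKO cells (0.93, SE 0.25, adjusted p = 0.0346). The groups did not overlap in either setting. The tumor call was lost without KEAP1-KO tumor 3 or 4 or DKO tumor 3 or 4 (0.87 to 1.02, adjusted p = 0.0597 to 0.0921), and the culture call without KEAP1-KO cells 2, 3 or 4 or DKO cells 1, 3 or 4 (0.84 to 0.99, adjusted p = 0.055 to 0.0983). Col16a1 has 8 rows in the table, and its row subject to nonsense-mediated decay had a mean of 243 in KEAP1-KO and 583 in DKO tumors. In cells the mean of that row was 285 in KEAP1-KO and 469 in DKO. The rows did not all move alike there. A protein-coding row of 4037 bases had means of 107 in KEAP1-KO and 65.8 in DKO cells. Another processed transcript had 26.6 and 16.7, and the libraries overlapped for each of these lower rows. With all 8 rows summed the differences were 1.01 (SE 0.18, adjusted p = 7.71e-04) in tumors and 0.58 (SE 0.08, adjusted p = 1.33e-04) in cells.

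**Figure D3:**
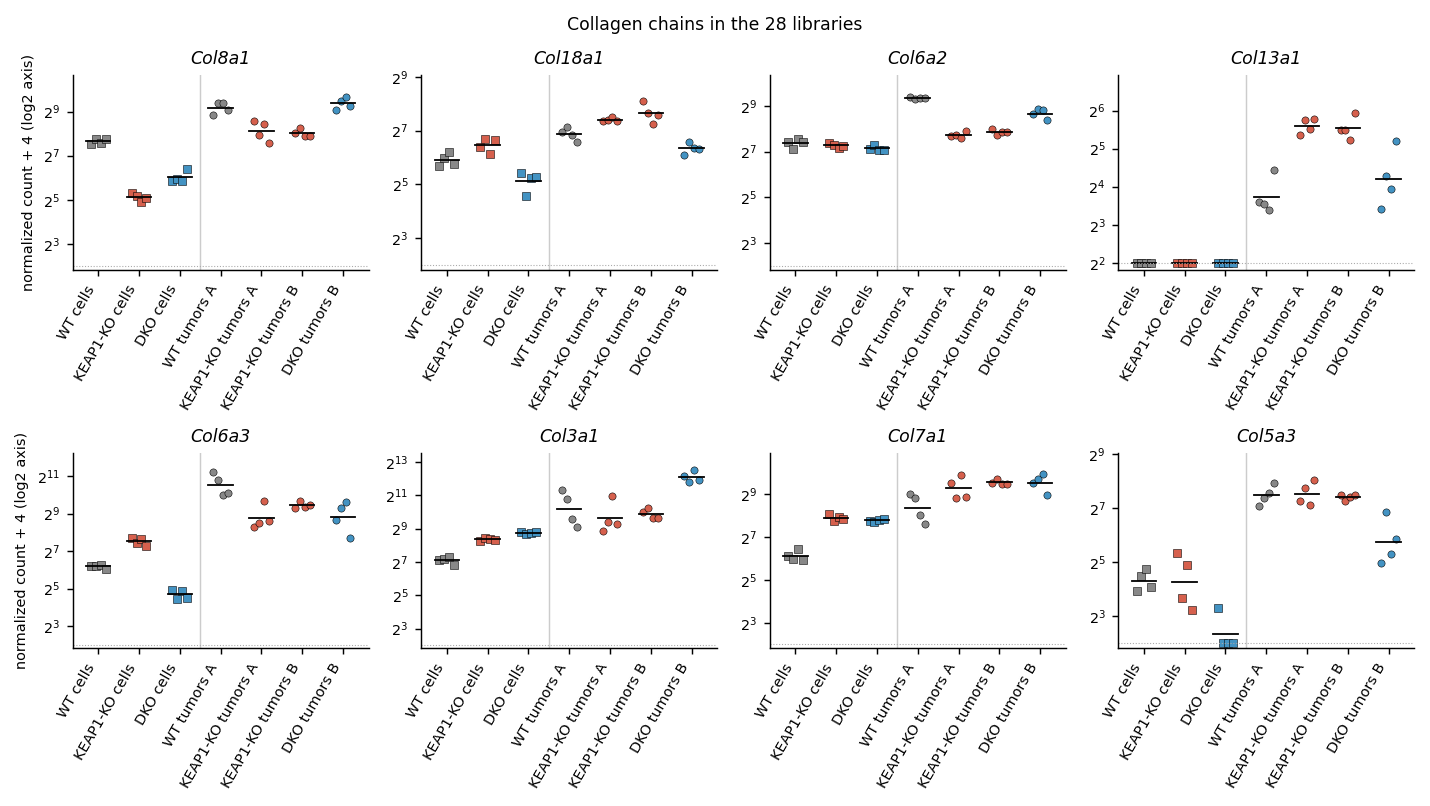
Each panel plots 1 chain in the 28 libraries as normalized count + 4 on a log2 axis; squares are cultures, circles tumors, grey WT, red KEAP1-KO and blue DKO, the bars are group means and the dotted line is a count of 0. Col6a2 separates the tumor genotypes while its cultures stay between 128.9 and 180.9, Col13a1 is at 0 in culture, and Col6a3 is highest in WT tumors but in KEAP1-KO cells.

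In culture 17 chains were tested. Of these 5 were higher and 1 lower in KEAP1-KO than in WT cells (8.13% of all 29744 rows higher, 7.33% lower, 15.5% called), and 3 were higher and 3 lower in DKO than in KEAP1-KO cells (3.98% higher, 4.85% lower, 8.83% called). These comparisons share the KEAP1-KO cells. Besides Col8a1, Col3a1, Col6a3 and Col11a2, the calls of KEAP1-KO against WT cells were Col7a1 and Col20a1. Col7a1, the chain of the anchoring fibrils that tie epithelium to dermis, had 66.1, 58.3, 83.4 and 57.9 in WT cells, 268.4, 209.7, 242.3 and 224.7 in KEAP1-KO cells and 215.9, 202.8, 221.1 and 229.7 in DKO cells. The first step was 1.78 (SE 0.12, adjusted p = 4.12e-07), and DKO and KEAP1-KO cells did not differ beyond their spread (-0.11, 95% interval -0.37 to 0.14). In tumors Col7a1 had 510.2, 449.6, 259.5 and 193.5 (WT) and 735.9, 457.9, 953.5 and 472.1 (KEAP1-KO, Experiment A), a difference of 0.92 (SE 0.30) that missed the threshold (adjusted p = 0.0517). It passed without WT tumor 1 or 2 or KEAP1-KO tumor 2 or 4 (1.05 to 1.13, adjusted p = 0.0228 to 0.0467). It also passed with a mean filter, quantile normalization or median centring (adjusted p = 0.03365 to 0.04347). With the 4 rows of Col7a1 summed the difference was 0.92 (SE 0.29, adjusted p = 0.0270). Col20a1, a little studied fibril-associated chain, was at 0 in all 4 WT cultures and at 3.7, 7.9, 7.5 and 6.3 in KEAP1-KO cells, close to the limit of 3 reads. It passed the filter only through 3 KEAP1-KO cultures and 1 DKO culture, so its difference from WT is given as a description. The 5 higher chains of this comparison include it.

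Of the 17 chains 8 differed between DKO and WT cells, against 17.7% of all rows: Col3a1, Col7a1, Col11a2 and Col16a1 were higher and Col5a3, Col6a3, Col8a1 and Col18a1 lower. The Col16a1 call was lost without DKO cells 3 or 4 (adjusted p = 0.0572 and 0.0588). In tumors, DKO tumors of Experiment B against WT tumors of Experiment A gave 8 of 23 chains, against 10.6% of all rows, but there the genotype goes with the experiment and these cannot be told apart. Col3a1 (1.93, adjusted p = 0.0106), Col7a1 (1.16, adjusted p = 0.0179), Col16a1 (0.99, adjusted p = 0.0281) and Col11a2 (0.78, adjusted p = 0.0312) were higher, and Col5a3 (-1.73, adjusted p = 0.0021), Col6a3 (-1.72, adjusted p = 0.0078), Col6a2 (-0.68, adjusted p = 3.43e-04) and Col18a1 (-0.54, adjusted p = 0.0411) lower. The calls of Col3a1, Col5a3, Col6a3 and Col6a2 held whichever library was left out, whereas the count fell to 4 without DKO tumor 3 and to 5 without DKO tumor 4, WT tumor 3 or WT tumor 4. Col11a2 was lost in 7 such omissions (adjusted p = 0.0533 to 0.0902), Col18a1 in 6 (0.0716 to 0.123), Col7a1 in 4 (0.0501 to 0.0587) and Col16a1 in 3 (0.0721 to 0.0801). The KEAP1-KO tumors of Experiments A and B, the same line in opposite flanks, differed in 0 of 23 chains by limma (0.164% of all rows were called), and the alternatives gave 0 as well. At an unadjusted p under 0.05 there was 1, Col15a1 (0.81, adjusted p = 0.362).

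The difference between tumor and culture was tested directly as an interaction over 25 chains. For KEAP1-KO against WT, 6 chains were called, against 5.38% of all rows. The tumor difference was below the culture difference for Col6a3 (-3.11, SE 0.44, adjusted p = 3.6e-05), Col6a2 (-1.52, SE 0.14, adjusted p = 8.62e-08), Col3a1 (-1.79, SE 0.51, adjusted p = 0.0371) and Col20a1 (-1.44, SE 0.36, adjusted p = 0.0137), of which the last restates the culture difference, as Col20a1 lay between 0.0 and 5.2 in tumors and was not tested within them. It was above it for Col13a1 (1.85, SE 0.38, adjusted p = 0.00244) and Col8a1 (1.51, SE 0.26, adjusted p = 3.31e-04), whose fall was smaller in tumors. For DKO against KEAP1-KO, 4 chains were called, against 3.67% of all rows: Col6a3 (2.21, SE 0.44, adjusted p = 0.00324), Col6a2 (0.95, SE 0.14, adjusted p = 1.25e-04), Col3a1 (1.84, SE 0.51, adjusted p = 0.0416) and Col13a1 (-1.34, SE 0.38, adjusted p = 0.0473). Col18a1 had interactions of -0.02 (95% interval -0.54 to 0.51) and 0.02 (95% interval -0.50 to 0.55). The Col3a1 calls were each lost in 16 of 24 alternatives, with 12 and 14 of these leaving out 1 library (adjusted p = 0.0514 to 0.0929), and the Col13a1 call for NRF2 in 18 of 23 (adjusted p = 0.0556 to 0.164).

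**Figure D4:**
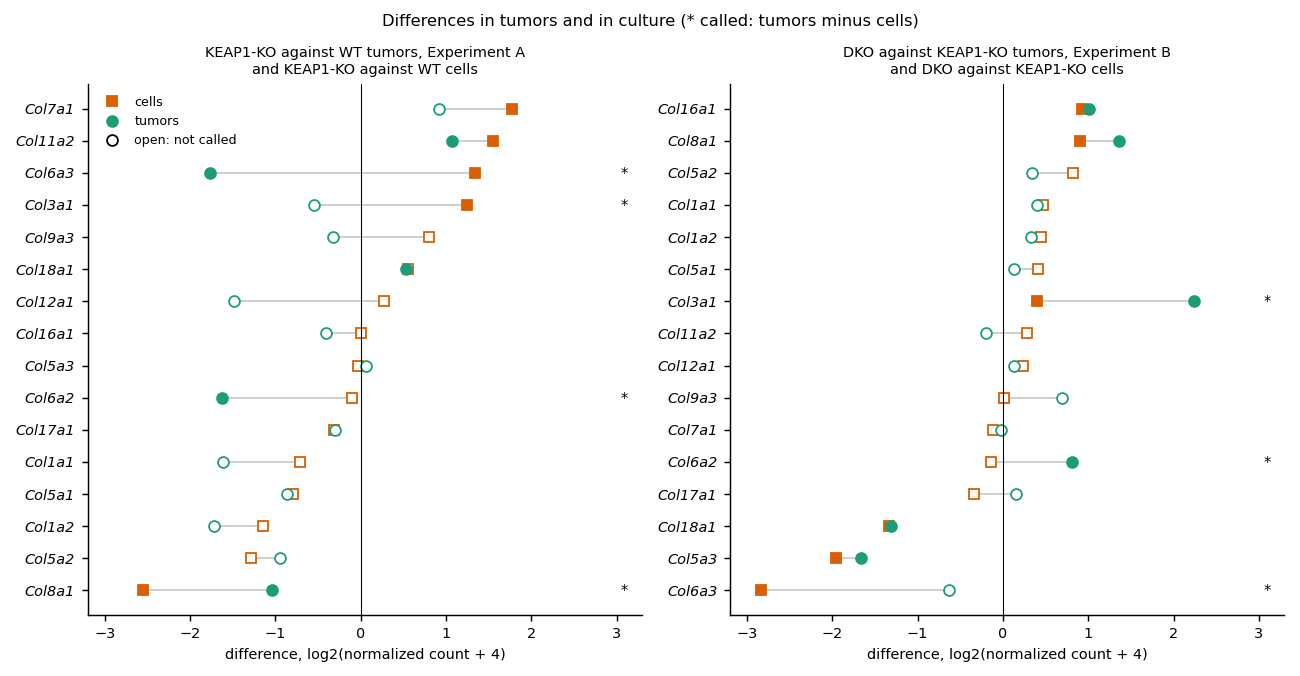
For the 16 chains tested in both, squares give the difference in cultured cells and circles that in tumors on the log2(normalized count + 4) scale, for KEAP1-KO against WT (left) and DKO against KEAP1-KO (right); filled symbols were called and stars mark a called difference between tumors and cells. Col18a1 has overlapping symbols in both panels, while Col6a3 spans from -1.77 in tumors to 1.34 in cells at the left.

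Promoters are shown for Col7a1, Col6a2 and Col13a1, which were each called in a comparison of KEAP1-KO with WT samples and whose windows hold the core of the antioxidant response element (the motif that NRF2 binds), and for Col1a2, which missed the threshold in each comparison between genotypes. They were taken from RefSeq on build GRCm38.p6, from 250 bases before the start site to 10 bases after it. Capitals mark the element core (TGACNNNGC), the CCAAT box (CCAAT), the TATA box (TATAAA) and the AP-1 site (TGANTCA), on either strand.
Col7a1 (chr9:108953336-108953595, plus strand): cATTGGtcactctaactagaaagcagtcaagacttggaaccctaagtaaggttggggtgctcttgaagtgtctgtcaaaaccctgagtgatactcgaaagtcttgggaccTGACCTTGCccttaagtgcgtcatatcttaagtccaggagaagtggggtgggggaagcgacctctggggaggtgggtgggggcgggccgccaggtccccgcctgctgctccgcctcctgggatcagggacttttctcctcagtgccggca
Col6a2 (chr10:76623395-76623654, minus strand): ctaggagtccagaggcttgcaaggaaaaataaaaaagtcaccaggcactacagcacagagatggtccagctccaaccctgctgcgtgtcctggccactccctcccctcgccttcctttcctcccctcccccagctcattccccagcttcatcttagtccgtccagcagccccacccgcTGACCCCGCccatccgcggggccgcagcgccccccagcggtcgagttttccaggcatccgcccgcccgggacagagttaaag
Col13a1 (chr10:61979099-61979358, minus strand): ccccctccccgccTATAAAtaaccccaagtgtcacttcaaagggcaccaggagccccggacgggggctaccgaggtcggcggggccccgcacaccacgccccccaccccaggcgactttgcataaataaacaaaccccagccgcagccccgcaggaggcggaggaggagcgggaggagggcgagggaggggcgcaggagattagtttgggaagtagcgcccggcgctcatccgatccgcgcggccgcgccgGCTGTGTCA
Col1a2 (chr6:4505368-4505627, plus strand): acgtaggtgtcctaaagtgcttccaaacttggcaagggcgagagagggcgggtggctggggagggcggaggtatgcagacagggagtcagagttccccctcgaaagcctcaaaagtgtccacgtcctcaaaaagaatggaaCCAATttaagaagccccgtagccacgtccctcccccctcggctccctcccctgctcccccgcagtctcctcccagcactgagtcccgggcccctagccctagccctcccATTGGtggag
The search ran over 250 bases before to 50 bases after the start, in 25 windows of 23 of the 30 genes. The element core was in the windows of 5 collagen genes (Col13a1, Col24a1, Col4a2, Col6a2 and Col7a1) and in 12.4% of all 32851 promoters, beginning 140 bases before the start in Col7a1, 72 bases before it in Col6a2 (in the window of 1 of its starts) and at base 2 in Col13a1. The CCAAT box was in the windows of 9 (37.4% of all promoters), the GC box (GGGCGG, not in capitals above) in those of 15 (35.7%), the TATA box in 4 (13.6%) and the AP-1 site in 1, Col6a1 (7.81%). Col18a1 and Col5a3, which were lower in DKO samples in both settings, and Col8a1 and Col6a3 had no match to the element core in these windows. A match is a run of letters and not a measured binding site. The windows lie at RefSeq starts, which need not be where the measured rows begin. The Col13a1 row begins at chr10:61878392 and the Col7a1 row at chr9:108969693, each downstream of its window.

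The type I chains, Col5a1, Col5a2 and Col12a1 had a wide spread between tumors of 1 genotype. Col1a1 had 4123, 1364, 352.8 and 194.4 in WT tumors, 111.2, 159.6, 1246 and 190.8 in Experiment A KEAP1-KO tumors, 396.0, 960.7, 436.2 and 450.9 in those of Experiment B, and 482.1, 1540, 2169 and 137.3 in DKO tumors. Col1a2, its partner in the type I helix, had 2138, 627.7, 156.3 and 98.5, then 55.6, 82.1, 485.0 and 71.1, then 193.5, 403.1, 229.3 and 202.3, and 245.4, 681.0, 1100 and 46.9 in the same order. Col12a1, a fibril-associated chain, had 882.9, 608.7, 145.3 and 133.3 in WT tumors, 55.6, 80.9, 686.9 and 48.7 and then 227.4, 544.6, 313.5 and 261.1 in the KEAP1-KO tumors, and 326.5, 811.8, 1047 and 50.3 in DKO tumors. Within each tumor group the same tumor was highest for all 5 of Col1a1, Col1a2, Col5a1, Col5a2 and Col12a1: WT tumor 1, KEAP1-KO tumor 3 of Experiment A, KEAP1-KO tumor 2 of Experiment B and DKO tumor 3. The highest tumor exceeded the lowest by 6.62 to 21.7 times in WT, 4.11 to 14.1 times in KEAP1-KO of Experiment A, 1.91 to 2.43 times in KEAP1-KO of Experiment B and 5.53 to 23.5 times in DKO. These 5 chains were chosen after their values were seen.

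The pooled SD within tumor groups on the log2 scale was 1.56 for Col1a1 and 1.58 for Col1a2, against a median of 0.37 over all rows tested and 0.14 for Col6a2. The differences of KEAP1-KO from WT tumors were -1.61 for Col1a1 (95% interval -3.69 to 0.46, adjusted p = 0.349), -1.72 for Col1a2 (95% interval -3.82 to 0.38, adjusted p = 0.316) and -1.48 for Col12a1 (95% interval -3.47 to 0.51, adjusted p = 0.373). Those of DKO from KEAP1-KO tumors were 0.39 (95% interval -1.68 to 2.47), 0.33 (95% interval -1.77 to 2.42) and 0.13 (95% interval -1.86 to 2.12). At this spread 4 tumors a group do not tell a change of several-fold in type I collagen RNA from none. Col5a1 and Col5a2 differed by -0.86 (adjusted p = 0.499) and -0.95 (adjusted p = 0.42) in Experiment A.

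Cultures showed the same grouping at a smaller scale. WT cells 3 and DKO cells 3 were highest for all 5 chains, and KEAP1-KO cells 2 for 4 of 5 (Col12a1 was highest in KEAP1-KO cells 3). Col1a1 was 70.7, 59.4, 136.5 and 62.2 in WT cells, 39.9, 65.5, 34.9 and 48.3 in KEAP1-KO cells, and 69.4, 63.1, 107.9 and 37.6 in DKO cells. Col1a1 was not called between the lines (KEAP1-KO against WT -0.71, adjusted p = 0.176). Col1a2 missed the threshold for the same comparison (-1.14, adjusted p = 0.102) and passed it when only the compared groups were fitted (adjusted p = 0.0379). Col5a2 also missed it (-1.29, adjusted p = 0.0573) and passed without WT cells 2 or KEAP1-KO cells 2 (adjusted p = 0.0478 and 0.0485).

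**Figure D5:**
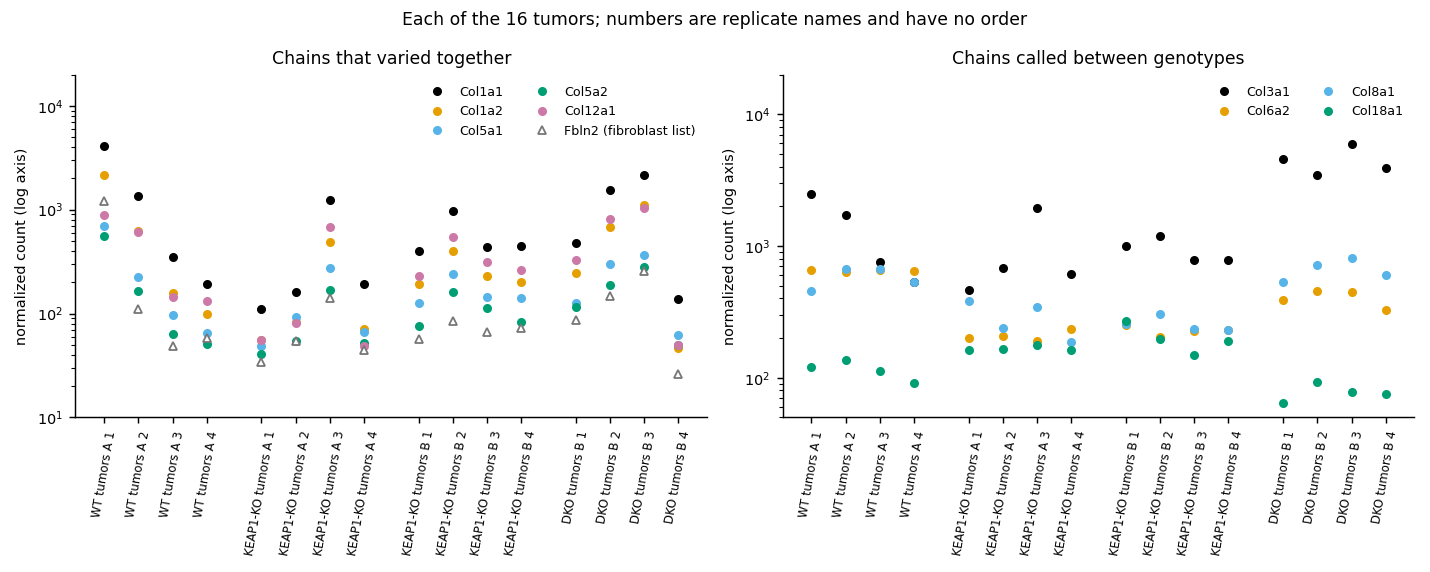
Normalized counts on a log axis in each of the 16 tumors, for Col1a1, Col1a2, Col5a1, Col5a2 and Col12a1 with Fbln2, chosen after the values were seen because it shared their highest tumors, unlike Dcn and Pdgfra of the same fibroblast list (left), and for Col3a1, Col6a2, Col8a1 and Col18a1 (right). At the left all symbols are highest in WT tumor 1, KEAP1-KO tumors A 3 and B 2 and DKO tumor 3; at the right Col6a2 stays between 635.4 and 661.1 in the 4 WT tumors.

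Markers of other cell types were counted in the same tumors and are read against the 13.1% of all rows called in Experiment A and the 8.86% called in Experiment B. The fibroblast list of 12 genes summed to 3247 to 4703 in WT tumors, 1205 to 1353 in Experiment A KEAP1-KO tumors, 1068 to 1460 in those of Experiment B and 5480 to 8585 in DKO tumors. Dcn made up most of these sums. Of 10 genes of the list tested, 2 (Dcn and Dpt) fell from WT to KEAP1-KO tumors and 3 (Dcn, Dpt and Lum) higher in DKO than in KEAP1-KO tumors. Without Dcn the list was highest in WT tumor 1 (2254, against 427 to 810 in the others), KEAP1-KO tumor 3 of Experiment A (593, against 359 to 392) and DKO tumor 3 (1416, against 551 to 907), which are also the tumors highest in Col1a1. In Experiment B KEAP1-KO tumors it lay between 446 and 514, with the highest value in tumor 3 and not in tumor 2, where Col1a1 was highest. The genes of the list differed in this: Fbln2, Loxl1, Lum and Thy1 shared the highest tumor with Col1a1 in 4 of 4 tumor groups, Fbln1 and Postn in 3, Dpt and Pi16 in 1, and Dcn and Pdgfra in 0. Dcn was lowest in KEAP1-KO tumors A 3 and B 2 and in DKO tumor 3, at 667, 570 and 4712, the tumors highest in Col1a1. In culture the list summed to 99.7 to 279.8, Pdgfra lay between 0.0 and 86.2 and Lum between 0.0 and 2.9, and 4 to 6 of the 12 genes had a group mean under 1. Dpt was also present in culture, at 24.7 to 33.1 in WT cells and 56.6 to 68.9 in KEAP1-KO cells, against 18.9 to 39.9 in KEAP1-KO tumors.

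The leukocyte list fell in 6 of 6 genes tested in Experiment A KEAP1-KO tumors (median -2.0) and rose in 6 of 6 in DKO tumors (median 0.88). Of 10 pericyte and smooth muscle genes, 1 rose (Abcc9) and 1 fell (Pdgfrb) in Experiment A and 1 rose (Des) in Experiment B. Of 8 endothelial genes, 0 were called in Experiment A and 1 fell (Cldn5) in Experiment B. The pericyte and endothelial counts are near the shares over all rows. By tumor, the pericyte and smooth muscle list summed to 2032 in WT tumor 1, against 930.7 to 960.9 in the other WT tumors. In the other groups its highest sums were in KEAP1-KO tumors A 2 and B 1 and in DKO tumor 3. The skeletal muscle list summed to 35 to 481.0 in DKO tumors and to 17.3 to 70.1 in the other tumors, and 3 of its 4 genes tested rose in DKO tumors. The part of these cell types in the collagen differences was not tested.

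The genes that modify, cut, cross-link and bind collagen were counted from a fixed list, again beside 13.1% of all rows called in Experiment A and 8.86% in Experiment B. The counts for enzymes and chaperones, receptors and regulators are within 1 gene of what these shares give in both experiments, and those for processing and cross-linking within 2 genes, so nothing is read from the counts and the genes are given by their own values only. Of 15 enzymes and chaperones tested, 1 rose and 1 fell in Experiment A KEAP1-KO tumors and 1 rose in DKO tumors. Plod1, which hydroxylates lysines of new chains, differed by -1.14 (SE 0.10, adjusted p = 7.65e-07) in Experiment A and 0.63 (SE 0.10, adjusted p = 4.99e-04) in Experiment B. Of 11 genes for processing and cross-linking, 3 fell in Experiment A, namely Adamts14 and Pcolce, which act on procollagen ends, and Loxl3, and 2 rose in Experiment B. Loxl3, a lysyl oxidase that cross-links fibrils, differed by -0.88 (SE 0.23, adjusted p = 0.0158) and 1.30 (SE 0.23, adjusted p = 0.00137), and Bmp1, the procollagen C-proteinase, by 0.89 (SE 0.15, adjusted p = 0.00138) in Experiment B. Of 7 receptors, Lair1, an inhibitory collagen receptor of leukocytes, fell in Experiment A (-1.62, SE 0.25, adjusted p = 2.62e-04) and rose in Experiment B (0.95, SE 0.25, adjusted p = 0.0221). Of 6 regulators, 1 (Smad7, an inhibitor of TGF-beta signaling) rose in Experiment A (0.38, SE 0.09, adjusted p = 0.0117) and 0 changed in Experiment B. P3h4, a partner of a prolyl hydroxylase, was the other called enzyme (0.33, SE 0.10, adjusted p = 0.0307). Plod1, Loxl3 and Lair1, the genes called in both comparisons, were lower in KEAP1-KO tumors each time.

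The chains of basement membranes were the least well covered. The symbol rows of Col4a1, Col4a2, Col4a5 and Col4a6 had 0 counts in many libraries and were not tested between genotypes within tumors or within cells. Col4a2 was tested in the fits of all 28 libraries only, where it was not called (DKO tumors against DKO cells -0.96, 95% interval -2.67 to 0.75). A row of Col4a1 without a symbol, a transcript of 618 bases subject to nonsense-mediated decay, was well above that, with means of 240 in WT, 299 and 303 in KEAP1-KO and 182 in DKO tumors, and of 146, 201 and 140 in WT, KEAP1-KO and DKO cells. With the 7 rows of Col4a1 summed, DKO was lower than KEAP1-KO by -0.71 (SE 0.13, adjusted p = 0.00107) in tumors and -0.65 (SE 0.18, adjusted p = 0.0245) in cells. Such sums were tried after the data were seen.

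The remaining tested chains gave no call between genotypes in tumors. Col17a1, of hemidesmosomes, lay between 3.3 and 17.4 in tumors, Col9a3 between 2.7 and 17.9, Col23a1 between 0.0 and 32.4, Col27a1 between 0.0 and 18.6, Col2a1 between 2.1 and 13.3 and Col22a1 between 0.9 and 7.3. Col14a1 reached 21.9 in 1 DKO tumor and Col24a1 6.4 in 1 WT tumor, both below the filter. Differences of such rows are understated by the added 4 and were often not detectable at this depth.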

How the data were processed

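RNA-seq values of 16 tumors and 12 cultures were used, with groups and replicate numbers from the sample titles and flanks from the study's results text (a label that names liver was not followed). According to the study's methods the authors removed ribosomal RNA, made directional libraries and quantified them with Salmon against GENCODE mouse transcripts. The deposited values are log2(normalized count + 4), a scale inferred from the table itself, where the floor is 2 and 100% of low values were whole reads times 1 factor per library (tolerance 0.1). Rows at 0 made up 13.95% to 23.47% of a library. The transform was undone for levels. Differences were tested with limma 3.58.1 (R 4.3.3, trend on), with all 4 tumor groups, all 3 cell groups, or all 7 for tumors against cells, and Benjamini-Hochberg adjustment. Each chain called within an experiment or between neighbouring lines is given with its values. The members and lists were chosen with earlier results of these data known. Scripts were tested on simulated data. No other column of values was in the table.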

Additional observations from a re-analysis of the deposited data

Results flagged for a closer look

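The effect of KEAP1 deletion differed between tumors and cultured cells, by an interaction test in limma, for Col6a3 (-3.11), Col3a1 (-1.79), Col13a1 (1.85), Col8a1 (1.51), Col6a2 (-1.52) and Col20a1 (-1.44), all as tumor minus culture on the log2(normalized count + 4) scale. The effect of NRF2 deletion differed in the same way for Col6a3 (2.21), Col3a1 (1.84), Col13a1 (-1.34) and Col6a2 (0.95). Col13a1 had no reads in culture, so its interaction equals its tumor difference. Col20a1 was at 5.2 or less in tumors, so its interaction restates its culture difference.

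A single library stood apart from the other 3 of its group by Dixon's criterion (its gap over the group's range) in 8 of 142 groups checked, where chance alone gives about 1 in 20, or 7.1. KEAP1-KO tumor 2 of Experiment B had 960.7 for Col1a1 against 396.0 to 450.9 in the others. DKO tumor 2 had 30.9 for Col6a1 against 11.9 to 13.1, and 2.1 for Col2a1 against 4.0 to 4.4. KEAP1-KO tumor 3 of Experiment A had 10.6 for Col27a1 against 0.0 in the others, and KEAP1-KO tumor 1 of Experiment A had 6.7 for Col9a3 against 5.8. Among cultures, DKO cells 1 had 5.9 for Col5a3 against 0.0, WT cells 4 had 63.3 for Col6a3 against 70.1 to 71.5, and WT cells 4 had 0.0 for Col9a3 against 7.6 to 8.7.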

How the results depend on the processing

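Alternatives were pseudocounts of 1 and 0.4, no filter or a mean of at least 25, quantile normalization, median centring, no trend, fits of the compared groups alone, a replicate block and leaving out each library. None of the 123 called results for single chains, over all comparisons, changed sign under any of these, and 92 stayed called under all of those run for them. For the NRF2 interaction a pseudocount of 0.4 left 2 of 4 chains, and leaving out 1 library left 2 to 3. For DKO against WT tumors, leaving out 1 library left 4 to 7 of 8 chains (4 without DKO tumor 3, and 5 without DKO tumor 4, WT tumor 3 or WT tumor 4). Leaving out 1 library gave 5 to 7 chains in either within-experiment tumor comparison, 5 to 7 for KEAP1-KO against WT cells and 4 to 5 for DKO against KEAP1-KO cells. For tumors against cells, the alternatives together gave 14 to 18 chains in WT, 12 to 16 in Experiment A KEAP1-KO, 14 to 18 in Experiment B KEAP1-KO and 14 to 20 in DKO. The labels do not say which tumors share a mouse, and replicate numbers did not show a pairing (correlations of same-numbered samples from -0.032 to 0.033), and with the replicate block 5 chains were called for KEAP1-KO against WT tumors (Col15a1 and Col18a1 were lost), 6 for DKO against KEAP1-KO tumors (Col16a1 was lost), 7 for KEAP1-KO against WT cells, 6 for DKO against KEAP1-KO cells and 8 for DKO against WT cells. Summing the rows of a gene, chosen after seeing the data, gave 7, 8, 9, 7 and 9 chains in these comparisons. For KEAP1-KO against WT tumors the 7 included Col7a1 (adjusted p = 0.0270) and no longer Col18a1 (adjusted p = 0.0586). Counts below about 5 limit what can be seen of the low chains.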

Other observations

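A few genes shared the spread of type I collagen between libraries. Among the 28192 rows that passed the filter in tumors and in cells, 16, Col1a1 included, had their highest library in the same place as Col1a1 in all 7 groups (0.0568%). Those with a symbol included Col1a2, Col5a1 and Col5a2, the lysyl oxidase Lox, the matrix proteins Tnc and Fbln2, and the cadherins Cdh11 and Pcdh19. Casp8, Ccdc86, Pacc1 and Gask1b were also among them. Fbln2 was 1218 in WT tumor 1 and 48.4 to 110.5 in the other WT tumors, and 131.1 in WT cells 3 against 23.7 to 53.6 in the other WT cultures. In the 4 tumor groups alone, 10 of 23 chains tested shared the highest library with Col1a1, against 0.991% of all rows tested. These were Col1a1 itself, Col1a2, Col3a1, Col5a1, Col5a2, Col6a3, Col7a1, Col12a1, Col22a1 and Col23a1. This likeness was defined after the data were seen and carries no test.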
